A study of Mus musculus with 6 samples.

Results

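Immediate early genes are the genes that a cell transcribes first after a growth factor or serum signal, without needing newly made protein. The 10 genes described here were taken by symbol from the 55401 genes of the RNA-seq table: the FOS family (Fos, Fosb, Fosl1, Fosl2), the JUN family (Jun, Junb, Jund), the zinc finger factors Egr1 and Egr2, and Ier2, which encodes a nuclear protein. All 10 were found. The cultures were C57BL/6 cells labelled as female germline stem cells (FGSCs), a line kept for more than 20 passages on mitotically inactivated STO feeder cells in medium with serum, LIF, EGF, bFGF and GDNF. RNA-seq was performed on 3 control libraries without treatment and 3 libraries after 24 h with 1 μM metformin, a biguanide drug used against diabetes. The libraries are named as repeats and the methods speak of repeated experiments, but neither says that the 3 libraries of a group came from separate cultures, so the p-values measure only the spread between these libraries.

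FOS proteins bind DNA only as pairs with a partner, usually a JUN protein, whereas JUN proteins also pair with each other. These pairs form the transcription factor AP-1. The promoters of Fos and Egr1 are classic targets of MAP kinase signalling, which acts through serum response factor (SRF) bound to the CArG box and through CREB bound to the cAMP response element (CRE). The transcripts typically peak within the first hour and are then rapidly degraded, so a library taken 24 h after the start of treatment measures their standing level, and any earlier peak was not sampled.

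The label was checked against cell type markers, because a standing level depends on the cells present. Of 6 germ cell markers, all had a mean under 1 FPKM (fragments on a gene scaled to its length and to the depth of the library). For 3 of them, Dazl, Dppa3 and Pou5f1, every library had 0 FPKM. The other means were 0.662 FPKM for Ifitm3, 0.0233 FPKM for Ddx4, which encodes MVH, and 0.0167 FPKM for Prdm1. Ifitm3 reached 1.32 FPKM in control replicate 1. The summed level of the 6 markers was 0.48 to 1.38 FPKM in the control group and 0.33 to 0.93 FPKM in the metformin group. The germ cell label is therefore not borne out by these markers in these libraries, and the cells are called cultures here. The study also characterized the line by RT-PCR of germ cell markers and by MVH immunofluorescence, which were not analysed here. Of 13 fibroblast markers, which the feeder cells could bring, all were under 1 FPKM, with sums of 1.56 to 1.81 FPKM and 1.37 to 1.98 FPKM. Of 14 blood cell markers, 13 were found, 8 of them at 10 FPKM or more, with sums of 1071 to 1101 FPKM in the control group and 1064 to 1095 FPKM in the metformin group. Cpa3, Gata2 and Coro1a had the highest levels among them. A mean under 1 FPKM was found for 4 of the 13, Ms4a2 (0.897), Hdc (0.0117), Mpo (0.01) and Fcer1a, which was listed at 0. For each of the 3 marker lists the sums of the groups overlapped, but single blood cell markers lay apart in opposite directions. Of 9 tested, 5 had groups without overlap, against 17.0% of all genes tested, and 0 were called, with Gata2, Coro1a and Laptm5 higher and Cpa3 and Ptprc lower in the metformin group. Cpa3 had 366.1 ± 16.9 (SD, n = 3) and 337.9 ± 9.40 FPKM, and Gata2 258.3 ± 5.49 and 275.1 ± 2.99 FPKM. The part of these markers in the results that follow was not tested. In bulk RNA, fewer cells of a type and less RNA per cell cannot be told apart.

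The 10 genes spanned a wide range of levels, from a mean over the 6 libraries of 38.5 FPKM for Jund to 0.0417 FPKM for Fosb. Jund was the most abundant, with 37.48, 38.93 and 37.13 FPKM in the control libraries and 40.75, 37.88 and 38.96 FPKM in the metformin libraries. It was followed by Ier2, Junb, Fosl2, Jun, Fosl1, Egr1, Fos, Egr2 and Fosb. In this order the ranges over the 6 libraries overlapped between the neighbours Ier2 and Junb, Fosl2 and Jun, Fos and Egr2, and Egr2 and Fosb, and these pairs cannot be ranked beyond their spread. The ranges of all other neighbours did not overlap. Among the 10661 genes whose mean reached 1 FPKM, the level of Jund lay at percentile 85.4, that of Ier2 at percentile 74.7 and that of Egr1 at percentile 5.42.

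**Figure D1:**
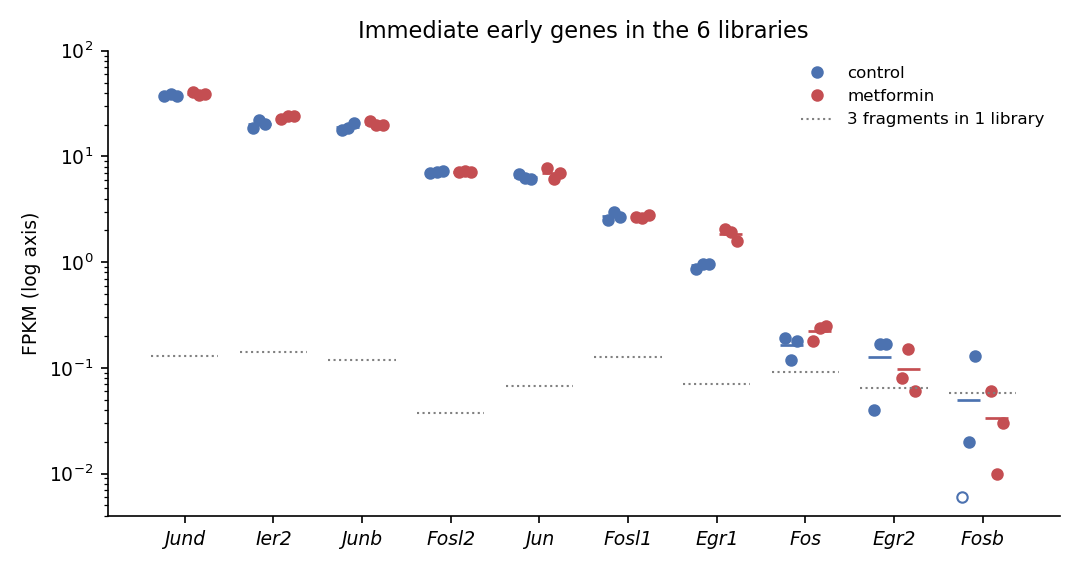
FPKM of the 10 immediate early genes on a log axis, with 1 point per library (blue, control; red, metformin), a bar at each group mean and a dotted line at the level that 3 fragments would give in 1 library. The open point is the control library in which Fosb was listed at 0, and Fos, Egr2 and Fosb lie near the dotted line whereas the other 7 genes lie well above it.

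The depth behind these levels was estimated at 13400000 to 14000000 fragments per library. At that depth Jund rested on about 838 to 954 fragments per library, Ier2 on 382 to 519, Junb on 433 to 554 and Jun on 271 to 348. For these 4 genes the FPKM times the gene length and the estimated depth came within 0.25 of a whole fragment in 23 of 24 values. Values unrelated to whole fragments would also often lie that close. Intervals and floors from fragments cover counting error only.

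FOS family. The gene that names the family was nearly silent. Fos had 0.19, 0.12 and 0.18 FPKM in the control libraries and 0.18, 0.24 and 0.25 FPKM in the metformin libraries, which is about 4 to 8 fragments per library. The groups overlapped, and every library was above the 3-fragment floor of about 0.0922 FPKM. Fosb, whose product is the closest relative of FOS, had 0, 0.02 and 0.13 FPKM in the control group and 0.06, 0.01 and 0.03 FPKM in the metformin group, against a floor of about 0.0578 FPKM. Of these only control replicate 3 and metformin replicate 1 exceeded the floor, so no direction can be read for Fosb. Both genes were under the filter of 1 FPKM and were not tested with the other genes. When no filter was used, the difference was 0.07 ± 0.04 (SE) for Fos, with an adjusted p of 0.783, and -0.02 ± 0.05 for Fosb, with an adjusted p of 0.92 (limma).

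The FOS family transcripts in these cultures were mainly those of Fosl2 and Fosl1, whose products, FRA2 and FRA1, lack the transactivation domain of FOS. Fosl2 had 6.97, 7.06 and 7.21 FPKM in the control libraries and 7.07, 7.22 and 7.1 FPKM in the metformin libraries. The groups overlapped, and the spread within the groups was at percentile 3.11 of all tested genes. Its coefficients of variation, 1.71% and 1.11%, were under the 4.19% and 4.15% that counting alone would give. Fosl1 had 2.53, 2.96 and 2.67 FPKM in the control group and 2.7, 2.6 and 2.78 FPKM in the metformin group, with all 3 metformin libraries inside the control range. The difference on the log2(FPKM + 1) scale was 0.0090 ± 0.04 (SE) for Fosl2 and -0.0090 ± 0.07 for Fosl1, with adjusted p-values of 0.954 and 0.978 (limma). A p of this size does not show that the levels were equal. Over 2767 bp, Fosl1 overlaps an unnamed gene of the other strand that averaged 4.33 FPKM, and the sources used here do not settle whether strand was used in counting, so the level of Fosl1 is uncertain. Of the summed FOS family level of 9.69 to 10.2 FPKM per library, Fosl2 gave 69.5% to 71.9%, Fosl1 25.8% to 29.1%, Fos 1.18% to 2.46% and Fosb 0% to 1.28%.

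The promoter of Fos is shown because it carries sequence elements through which the gene is known to respond, while the transcript itself was close to the floor. The sequence is taken from RefSeq on GRCm38.p6, chr12:85473790-85473889 on the plus strand, which is the stretch of 100 bases that ends just before the annotated start of Fos, with a CRE core (TGACGT) and a TATA box (TATAAA) in capitals.
Fos upstream: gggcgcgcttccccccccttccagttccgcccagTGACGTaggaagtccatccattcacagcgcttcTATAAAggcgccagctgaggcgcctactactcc
The CRE core begins 66 bases and the TATA box 33 bases upstream of the start. Promoter windows of 300 bases, from 250 before to 50 after the start, were found for 7 of the 10 genes, Fos, Fosb, Fosl2, Jun, Junb, Jund and Egr2. These were 11 windows, because several starts are annotated for Egr2. On both strands together, the CRE core was present in 7.51% of all 32851 promoter windows and the TATA box in 13.6%. Among the 7 genes, the CRE core was in windows of Fos and Egr2 and the letters TATAAA in those of Fos and Junb. In the Junb window these letters begin on the annotated start itself, at 84978748. The deposited table starts this gene of the minus strand at 84978718. The AP-1 site TGANTCA, present in 7.81% of all windows, had no match in the windows of these 7 genes. Variants of this site with other letters were not searched. The Jund window lies around an annotated start at 70697739, upstream of the start at 70698949 in the deposited table. The Fosl2 window lies around a start at 32136472, inside the gene that begins at 32135801 in the deposited table. A match of letters is a description and not a bound site.

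JUN family. Jun, Junb and Jund were all readily measured, and no member passed the test. Jund, the member that quiescent and growing cells alike express, is given above, with overlapping groups and a mean of 37.9 ± 0.954 (SD, n = 3) FPKM in the control group and 39.2 ± 1.45 FPKM in the metformin group. Its difference was 0.05 ± 0.03 (SE) with an adjusted p of 0.643 in limma. Junb, which is often an antagonist of Jun in growth control, had 17.86, 18.55 and 20.56 FPKM in the control libraries and 21.82, 19.78 and 19.66 FPKM in the metformin libraries. Here metformin replicate 1 was above every other library, while control replicate 3 was above the other two metformin libraries, so the groups overlapped. The difference for Junb was 0.10 ± 0.06 with an adjusted p of 0.582 (limma).

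Jun, at chr4:95049034-95052222 on the minus strand of GRCm38, encodes the founding AP-1 subunit and had 6.81, 6.25 and 6.08 FPKM in the control libraries and 7.78, 6.13 and 6.93 FPKM in the metformin libraries. Metformin replicate 1 was again the highest of all, metformin replicate 2 was lower than 2 of the control libraries, and the groups overlapped. The difference was 0.10 ± 0.08 (SE) with an adjusted p of 0.683 (limma), and it was 0.03 without metformin replicate 1. Spread between the metformin libraries, a coefficient of variation of 11.9%, was larger for Jun than the 5.69% that counting alone would give. The composition of the family differed little between the groups. Jund made up 59.9% ± 1.48 (SD, n = 3) of the summed JUN family FPKM in the control group and 58.9% ± 0.857 in the metformin group, Junb 30.0% ± 1.93 and 30.7% ± 0.589, and Jun 10.1% ± 0.755 and 10.4% ± 0.738. Per length, the summed JUN family level of 62.2 to 70.4 FPKM was 6.26 to 7.03 times the summed FOS family level of the same library.

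EGR family. Egr1, which encodes a zinc finger factor induced by growth factors, had the largest difference of the 10 genes on the log2(FPKM + 1) scale. It was measured at 0.87, 0.97 and 0.97 FPKM in the control libraries and at 2.07, 1.93 and 1.6 FPKM in the metformin libraries. The groups did not overlap, and the lowest metformin library, replicate 3, was still above the highest control libraries. The means were 0.937 ± 0.0577 (SD, n = 3) FPKM and 1.87 ± 0.241 FPKM, a ratio of 1.99, or about 120 against 242 fragments summed over each group. The coefficient of variation was 6.16% within the control group and 12.9% within the metformin group, where counting alone would give 15.8% and 11.1%. The spread between the control libraries was thus under counting error and understates the uncertainty of their mean. On the log2(FPKM + 1) scale the difference was 0.56 ± 0.09 (SE), with an unadjusted p of 0.000406 and an adjusted p of 0.243 over the 10661 genes tested with limma. By p-value it ranked 15 of the 10661 genes, and by signed difference it was at percentile 99.6.

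The difference for Egr1 thus did not pass the test across all genes. The exact two-sided permutation test gave p = 0.1, the smallest that 3 libraries against 3 allow. Since the control mean was below 1 FPKM, Egr1 entered the test through its metformin libraries, and without the filter its adjusted p was 0.416 (limma). With a pseudocount of 0.1 in place of 1, which shrinks low genes less, the difference was 0.92 with an adjusted p of 0.249. Over all settings, the difference lay between 0.51 and 0.92 and the adjusted p between 0.216 and 0.472.

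Egr2, best known from hindbrain and Schwann cell development, was close to the floor of about 0.0638 FPKM, with 0.04, 0.17 and 0.17 FPKM in the control group and 0.08, 0.15 and 0.06 FPKM in the metformin group. Control replicate 1 and metformin replicate 3 were under the floor and the groups overlapped. Without a filter its difference was -0.04 ± 0.06 (SE) with an adjusted p of 0.883 (limma). Egr2 had more windows than any other member and was the only one of the 7 genes with a CArG box in a window. The windows with a CArG box lie around starts from 67537566 to 67537930, inside the gene that begins at 67535475 in the deposited table. The window around the start at 67535499 had none. Elements farther than 250 bases upstream of a start, and the promoters of Egr1, Ier2 and Fosl1, were not searched. Both boxes of Egr2 are shown here in capitals, from RefSeq on GRCm38.p6, plus strand of chromosome 10, at chr10:67537484-67537513 and chr10:67537787-67537816.
Egr2 first box: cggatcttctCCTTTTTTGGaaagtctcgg
Egr2 second box: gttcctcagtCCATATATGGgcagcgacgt
A CArG box was present in 1.63% of all promoter windows. The letters GCGNGGGCG, to which EGR proteins bind, were present in 5.55% of all windows and, among the 7 genes, in those of Fosl2 and Fosb, which are shown with these letters in capitals. The windows are chr5:32136383-32136412 on the plus strand and chr7:19310076-19310105 on the minus strand.
Fosl2: ccggctgcgcGCGGGGGCGgaagggcgcgc
Fosb: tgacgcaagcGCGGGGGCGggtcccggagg
The levels of Fosl2 and Fosb are given above, and a link between these letters and the level of Egr1 was not tested.

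Ier2. Ier2, at chr8:84661331-84662854 on the minus strand of GRCm38 in the deposited table, was the other member whose groups did not overlap. It had 18.7, 21.92 and 20.13 FPKM in the control libraries and 22.44, 24.37 and 24.01 FPKM in the metformin libraries. The gap was narrow, since control replicate 2 was close below metformin replicate 1. The means were 20.2 ± 1.61 (SD, n = 3) FPKM and 23.6 ± 1.03 FPKM, a ratio of 1.17. The difference on the log2(FPKM + 1) scale was 0.21 ± 0.06 (SE), with an unadjusted p of 0.00821 and an adjusted p of 0.348 (limma), and the gene ranked 249 of 10661 by p-value. The coefficient of variation was 7.97% within the control group and 4.35% within the metformin group, where counting alone would give 4.86% and 4.47%.

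**Figure D2:**
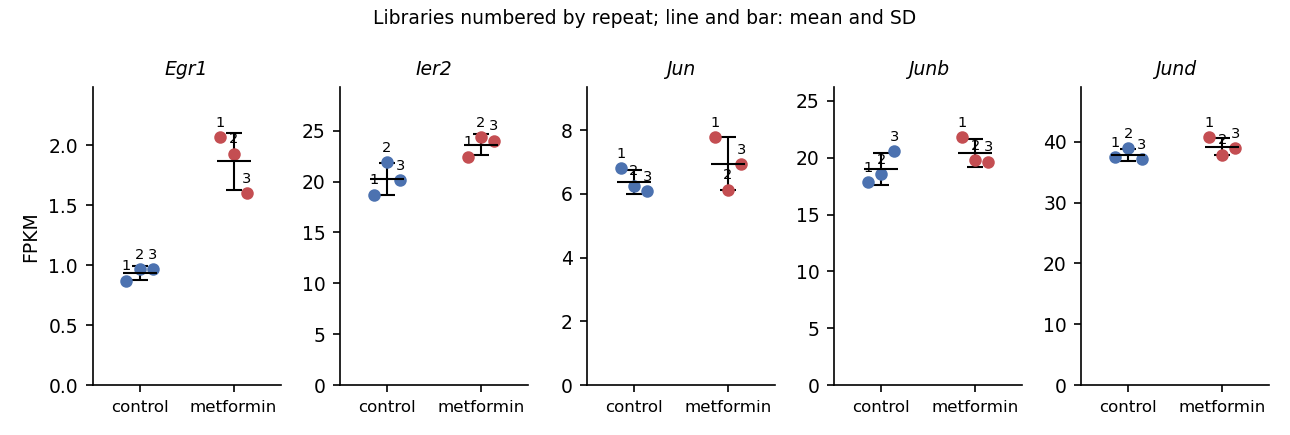
FPKM of Egr1, Ier2, Jun, Junb and Jund on linear axes that start at 0, with 1 numbered point per library (blue, control; red, metformin) and the mean with its SD (n = 3). The groups are apart for Egr1 and Ier2 and overlap for Jun, Junb and Jund, and metformin replicate 1 is the highest library for Egr1, Jun, Junb and Jund.

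Considered together, 0 of the 7 members that entered the test had an adjusted p under 0.05 in limma, against 0.0281% of all genes tested, which is 3 of 10661. An unadjusted p under 0.05 was found for 2 of the 7, against 10.8% of all genes, and the groups did not overlap for 2 of the 7, against 17.0% of all genes. These were Egr1 and Ier2 in both counts. Of the 7 genes, 6 were higher in the metformin group and 1 was lower, where 52.3% of all genes tested were higher. Of all 10 genes 7 were higher, for which no share over the unfiltered genes was computed. The median difference was 0.10 over the 7, with a median of 0.0041 over all genes tested. Without a filter it was 0.06 over all 10, with a median of 0.0 over 22809 genes. As Egr1 entered through the group where it was high, these counts are a description and not support for a common direction. Metformin replicate 1 was the highest of the 6 libraries for 4 of the members, and without it the median over the 7 was 0.03. With 2 libraries against 3, groups separate more easily. The number of the 7 members without overlap was 4 without control replicate 3, where 27.2% of all genes lacked overlap, and 4 without metformin replicate 2, where 26.9% did.

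**Figure D3:**
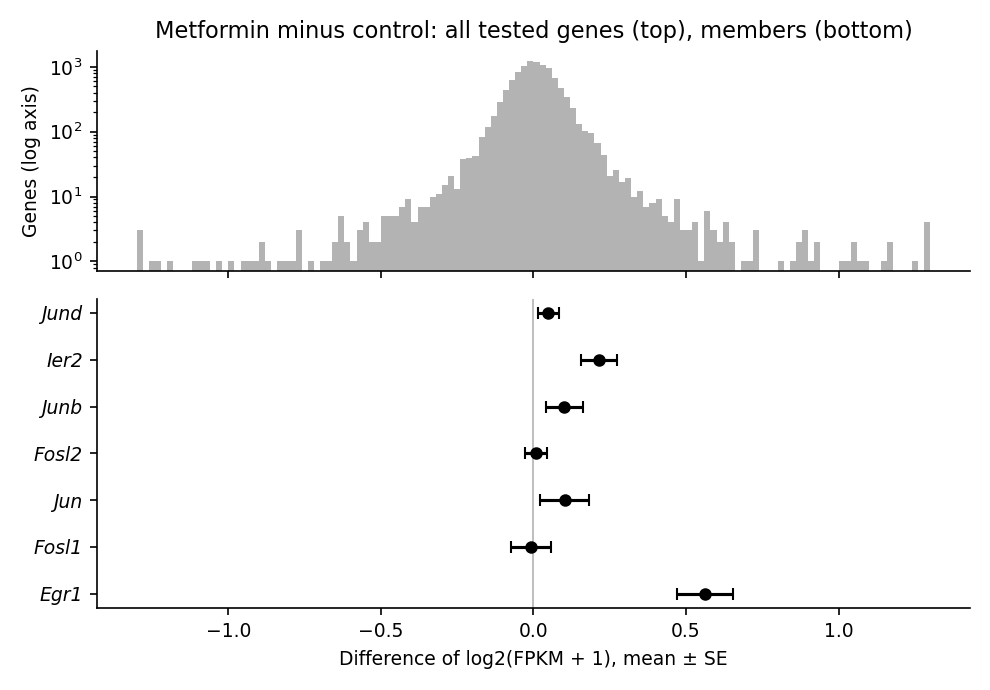
Difference of log2(FPKM + 1) between the metformin and control groups. The upper panel counts all 10661 tested genes on a log axis, with values beyond the axis placed in the outermost bars, and the lower panel gives the 7 tested members with their SE, where Egr1 at 0.56 and Ier2 at 0.21 lie farthest from 0.

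**Figure D4:**
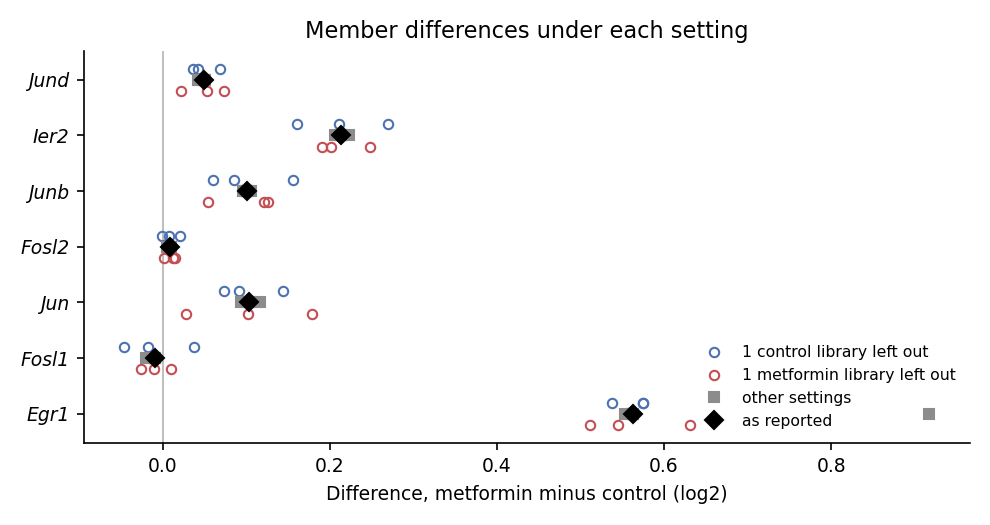
Difference between the metformin and control groups for the 7 tested members under each setting, as reported (diamond), with 1 library left out (circles) and under the other settings (squares). Egr1, Ier2, Jun, Junb and Jund stay above 0 under every setting run, the single square of Egr1 at 0.92 is the pseudocount of 0.1, and Fosl1 and Fosl2 lie on both sides of 0.

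Across the 6 libraries, Egr1 and Ier2 had a Pearson r of 0.796 and Jun and Jund one of 0.782, and the lowest r of a pair of tested members was -0.542, for Fosl2 and Jun. These values include the difference between the groups, rest on 6 points and are descriptions. Among the 5093 genes that averaged 10 FPKM or more, members left out, the genes with the pattern most like Fos were Ormdl2 (r = 0.986), Gm13436 and Poldip2 (both 0.981) and 2 genes without a symbol (both 0.973). The genes most like Ier2 were Gps1 (r = 0.988), Uqcrc1 (0.980), Prdx5 (0.974), Polr3d (0.970) and Gm11560 (0.969). The number of genes with r over 0.95 was 14 for each, and the values of Fos come from 4 to 8 fragments. Within the groups, Fos had coefficients of variation of 23.18% and 16.95%, under the 43.57% and 36.97% that counting alone would give. The highest of 5093 values of r over 6 points are high by selection, and the number to expect by chance was not computed.

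The other immediate early genes, a list of 25, held both abundant genes and genes near 0. Of these, 12 were tested, with 0 called, 11 higher and 1 lower in the metformin group, where 52.3% of all genes tested were higher. The median difference was 0.08 against 0.0041 for all genes. An unadjusted p under 0.05 (limma) was found for 3 of the 12, against 10.8% of all genes, and no overlap for 4 of the 12, against 17.0%. Their most abundant gene was Myc, which encodes a growth-promoting transcription factor, with 170.95, 173.09 and 176.33 FPKM in the control group and 189.7, 185.82 and 188.95 FPKM in the metformin group. The groups did not overlap for Myc, and the difference was 0.12 ± 0.02 (SE) with an adjusted p of 0.283 (limma). Mcl1, an anti-apoptotic BCL2 relative, had 63.8 ± 1.57 (SD, n = 3) and 64.6 ± 0.825 FPKM, and Ier3 had 53.9 ± 0.341 and 55.9 ± 0.823 FPKM. The other 13 genes were under 1 FPKM, with Egr4 and Arc listed at 0 in every library.

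Further genes of this list are named here after their values were seen. Ppp1r15a, which encodes the GADD34 subunit that directs a phosphatase to eIF2α, had 9.04, 9.52 and 10.3 FPKM in the control libraries and 12.69, 12.06 and 12.73 FPKM in the metformin libraries. These groups did not overlap, and the difference was 0.35 ± 0.05 (SE) with an adjusted p of 0.223 (limma). Atf3, an AP-1 partner that is also a target of ATF4, was at 0.38, 0.2 and 0.2 FPKM and at 0.63, 0.66 and 0.91 FPKM, also without overlap. The fragments behind these low levels were not estimated. Atf3 was under the filter, and without one its difference was 0.46 ± 0.09 with an adjusted p of 0.42 (limma). Without a filter, 10.3% of all genes lacked overlap. Klf10 and Dusp1 were also higher without overlap, by 0.14 with an adjusted p of 0.432 and, without a filter, 0.07 with an adjusted p of 0.803 (limma).

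Partners that form pairs with FOS and JUN proteins were described by 16 bZIP factors, of which 10 were tested, 5 higher and 5 lower, with a median of 0.0066 and 0 called. Atf4, the effector of the integrated stress response, was the most abundant, with 200.29, 207.4 and 202.93 FPKM in the control group and 238.02, 232.99 and 221.8 FPKM in the metformin group. Its groups did not overlap, and its difference was 0.18 ± 0.03 (SE) with an adjusted p of 0.243 (limma). Nfe2l2, the oxidative stress factor, had 27.8 ± 0.802 (SD, n = 3) and 27.4 ± 1.55 FPKM, and Mafk, a small MAF protein, 23.0 ± 0.333 and 23.5 ± 0.518 FPKM.

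Among the regulators upstream of the immediate early genes, none was called. Of 11 genes for SRF, its TCF and MKL cofactors, CREB family factors and the EGR corepressors NAB1 and NAB2, 11 were tested, 5 higher and 6 lower, with a median of -0.0094. No overlap was found for 3 of the 11, against the 17.0% of all genes, and these genes are named after their values were seen. The CREB family genes Crem and Creb1 were lower, with differences of -0.23 ± 0.08 (SE) with an adjusted p of 0.402 and -0.07 ± 0.04 with an adjusted p of 0.523 (limma), and the SRF cofactor gene Mkl1 was higher, by 0.16 ± 0.06 with an adjusted p of 0.417. Their most abundant genes were Atf1, with 44.5 ± 1.16 (SD, n = 3) and 45.8 ± 1.14 FPKM, Srf, with 23.2 ± 1.19 and 24.4 ± 0.778 FPKM, and Nab1, with 21.9 ± 0.879 and 20.5 ± 1.36 FPKM. Of 21 kinases of the ERK, JNK and p38 pathways, 20 were tested, 14 higher and 6 lower, with a median of 0.02. Over all genes tested, 52.3% were higher. No overlap was found for 3 of the 20, against 17.0% of all genes, of which 2 were higher and 1 lower. The kinase gene that was not tested, Mapk10, had a mean of 0.0333 FPKM. Mapk14, which encodes p38α, had 69.5 ± 0.547 (SD, n = 3) and 71.7 ± 1.24 FPKM, and Map2k3, which encodes a kinase that activates p38, 49.4 ± 0.227 and 51.8 ± 0.911 FPKM. Transcript levels say nothing of the activity of these kinases.

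Immediate early transcripts carry AU-rich elements that speed their decay. All 10 genes listed for this decay were tested, 7 higher and 3 lower, with a median of 0.05 and 0 called. Over all genes tested, 52.3% were higher. No overlap was found for 2 of the 10, Hnrnpd higher and Cnot7 lower, against 17.0% of all genes. Hnrnpd, which encodes the AU-rich element binding protein AUF1, had 99.8 ± 1.71 (SD, n = 3) and 104.0 ± 2.17 FPKM, Khsrp 59.8 ± 2.16 and 61.8 ± 1.61 FPKM, and Zfp36l2, a relative of tristetraprolin, 45.5 ± 1.57 and 47.3 ± 2.00 FPKM. Downstream, of 14 genes known as AP-1 targets in other cells, 10 were tested, 5 higher and 5 lower, with a median of -0.01 and 0 called. Of these 10, 2 had groups without overlap, Vim higher and Hbegf lower. Vim, for the intermediate filament vimentin, had 141.6 ± 1.36 (SD, n = 3) and 145.0 ± 0.924 FPKM, Ccnd1, for cyclin D1, 30.0 ± 0.961 and 29.0 ± 1.10 FPKM, and Cd44, for the hyaluronan receptor, 22.1 ± 0.254 and 22.8 ± 0.738 FPKM. The matrix metalloproteinase genes Mmp3, Mmp9, Mmp10 and Mmp13, often used as AP-1 reporters in fibroblasts, were the 4 that were under 1 FPKM.

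**Figure D5:**
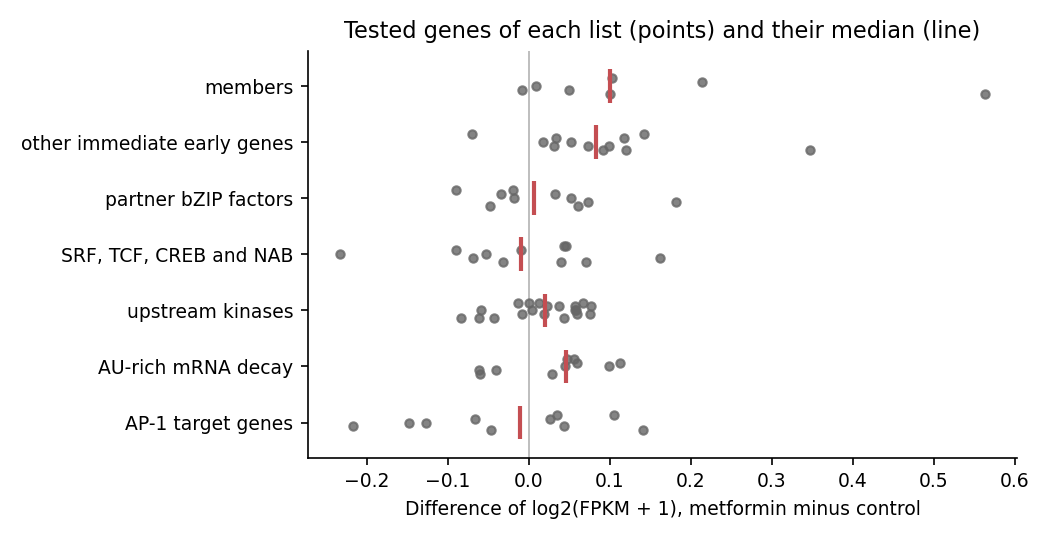
Difference of log2(FPKM + 1) between the metformin and control groups for the tested genes of each list, with 1 point per gene and a line at the median. The medians of the 7 members and of the other immediate early genes are 0.10 and 0.08, and those of the other lists lie between -0.01 and 0.05. Maff and Zfp36 stand in 2 lists each.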

How the data were processed

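The authors deposited FPKM values of 55401 Ensembl genes in 6 libraries, rounded to 2 decimals, after their own mapping and counting and after scaling to gene length and depth. The submitters' processing notes name HISAT2, DESeq2 and mm9, whereas the gene positions of the deposited table are those of GRCm38. The counter and the annotation are not given in the sources used here. The labels name a stranded library kit and the methods another kit, so the use of strand is not settled.

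Samples were grouped by the treatment in the labels. Depth was estimated from the FPKM step of 1 fragment in single-exon genes shorter than 400 bp. Values were compared as log2(FPKM + 1) in limma 3.58.1 on R 4.3.3 (lmFit, then eBayes with trend = TRUE), two-sided and adjusted by Benjamini-Hochberg over the 10661 genes whose mean reached 1 FPKM. A difference on this scale understates that of low genes. The script was tested on simulated data. The members and gene lists were chosen with earlier results of these data known. Genes named were the 10 members, in each list those with an adjusted p under 0.05 or otherwise the 3 of highest mean, and the 5 genes most like Fos and like Ier2. The values of 1 gene that this rule names are not reported here. Any other gene in the text was named after its values were seen. Alternatives were another pseudocount, filters, scalings, the spread without the trend, a replicate block and each library left out. Symbols were matched for 32589 genes by Ensembl identifier. Fragments per gene used GENCODE M1 exon lengths or the span in the deposited table, and are approximate. Promoters came from RefSeq (GRCm38.p6). Figures were drawn with Python 3.11.15 and matplotlib 3.10.9.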

Additional observations from a re-analysis of the deposited data

How the results depend on the processing

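No member had an adjusted p under 0.05 in limma under any of the settings tried, while 3 genes of all were called as reported, 7 without a filter (4 higher and 3 lower) and 2 with the replicate block or with a mean of at least 10 FPKM. With 1 library left out, 3 to 4 genes were called, 2 to 4 of the 7 members had groups without overlap (26.8% to 27.7% of all genes), and the median difference of the members was 0.0283 to 0.122, lowest without metformin replicate 1. That median was 0.06 without a filter and also without control replicate 1. The direction turned for Fosl2 without control replicate 1 (-0.00090, range over single libraries left out up to 0.0205) and for Fosl1 without control replicate 2 (0.0369, range from -0.046) and without metformin replicate 2 (0.0093), and for no other tested member. The replicate block gave Egr1 and Ier2 an adjusted p of 0.408 each. For libraries with the same number, the deviations from the group means had correlations of -0.0317, 0.0181 and 0.0479. Such values cannot decide whether these libraries were cultured together, which neither the labels nor the methods say. The mean of at least 10 FPKM left Ier2, Junb and Jund, and gave no value for the other members. Depth limits Fos, Fosb and Egr2, which had at most 8 fragments in any library.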
